A study of Homo sapiens with 12 samples.

Results

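SW480 is an established human colon adenocarcinoma line with mesenchymal features. The arrays described here compare its transcripts in a folate-free medium with and without folic acid added at a supraphysiological dose. Of the 12 arrays of the series, 6 are from SW480, and these were chosen by line and treatment labels alone: 3 FA-treated arrays (10000 ng/mL folic acid, FA, for 72 h in FA-free RPMI) and 3 untreated arrays (0 ng/mL, the same FA-free RPMI without addition). The other 6 arrays are the same pair of groups in HT-29, a second colon adenocarcinoma line, and are used only where the lines are compared. The untreated cells were thus folate-deprived for 72 h and are not cells in ordinary growth medium, the FA stock was dissolved in NaOH while no solvent-only array was used here, and FA and its solvent cannot be told apart on these arrays. The labels call the 3 arrays of a group biological replicates and the culture protocol speaks of seeding in triplicate. Separate cultures are not stated, so the tests see only how these samples vary, which may be technical.

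Each array (Human Transcriptome Array 2.0) holds log2 levels of 67528 transcript clusters, groups of probes that cover one locus. Of these, 25324 carry a platform gene symbol, 23781 of them a single symbol, for 22465 genes. All results below concern the single-symbol clusters, and where genes are counted each is taken by its cluster with the highest mean level.

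Folates carry 1-carbon units for thymidylate and purine synthesis and for the remethylation of homocysteine to methionine, the source of the methyl groups for DNA and histone methylation. Colon tumour lines need them for division, and folate shortage is known to disturb nucleotide pools. Cells keep a reducing interior with glutathione, made from cysteine that enters as cystine, and the transcription factors NRF2 and ATF4 are known to drive the genes for cystine import and glutathione synthesis.

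Colon epithelial markers were present in both groups. The 8 colon epithelial markers averaged log2 levels of 10.7 to 10.8 on the FA-treated and 10.7 to 10.9 on the untreated arrays. Of these 8 markers, 5 were higher and 2 lower on the FA-treated arrays. EPCAM, the epithelial adhesion molecule, stood at 12.74, 12.68 and 12.62 on the FA-treated and 12.55, 12.55 and 12.54 on the untreated arrays. CDH1, the epithelial cadherin, went the other way, with a log2 fold change of -0.59 to -0.33 over fits that each left out 1 array. Of the 8 differentiation markers that distinguish HT-29, 7 stayed under a log2 level of 5 on all 6 arrays, as did 8 of 9 leukocyte, 8 of 9 fibroblast and 5 of 6 endothelial markers. CDX2, the intestinal transcription factor, was low, at 5.28, 5.15 and 5.47 on the FA-treated and 5.49, 5.40 and 5.69 on the untreated arrays. The 5 mesenchymal markers of SW480 averaged 7.43 to 7.48 on the FA-treated and 7.10 to 7.24 on the untreated arrays. Among them 4 were higher and 1 was equal. Their median log2 fold change was 0.19, and 0.04 without untreated replicate 2. Of these 5, 1 stayed under a log2 level of 5 on all 6 arrays.

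The 6 arrays correlated at 0.986 to 0.995 over all clusters, but untreated replicate 2 stood apart in its range. Its SD over clusters was 2.22, against 2.27 to 2.29 on the FA-treated arrays and 2.25 to 2.26 on the other two untreated arrays, and its weight in an array-weighted fit was 0.289, the lowest of the 6. Protein-coding genes with a mean log2 level of 10 and over lay a median of 0.09 below their 6-array mean on that array, whereas those under 4 lay 0.04 above it. The median log2 fold change (FA-treated minus untreated throughout) of protein-coding genes was level-dependent: it was -0.03 under a level of 4 and 0.08 at 10 and over, and without untreated replicate 2 these medians were -0.01 and 0.04. Of 4200 genes with a mean of 8 and over, 3049 were higher and 1075 lower, with a median of 0.08, and this is the background against which shifts of abundant gene groups have to be read.

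**Figure D1:**
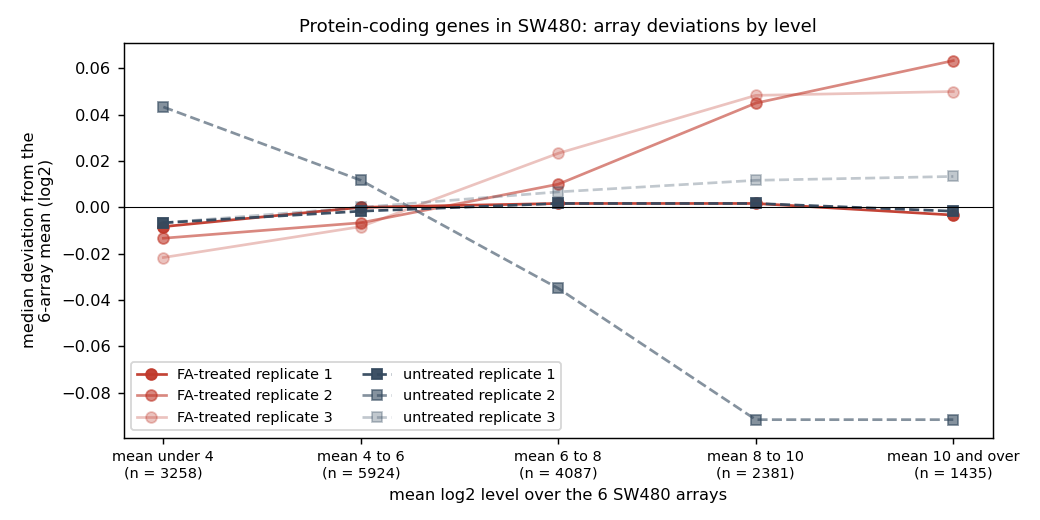
Median deviation of each SW480 array from the 6-array mean (log2, y axis) for protein-coding genes in 5 bands of mean log2 level (x axis); circles and solid lines are FA-treated arrays, squares and dashed lines untreated arrays. Untreated replicate 2 lies 0.04 above the mean in the lowest band and 0.09 below it in the highest, while FA-treated replicates 2 and 3 lie above it in the upper bands.

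No cluster passed an adjusted p of 0.05 in the limma fit of FA-treated against untreated SW480 (0.0% of 67528, smallest Benjamini-Hochberg adjusted p 0.700), and 3522 (5.22%) had an unadjusted p under 0.05. When each cluster's own variance was used in place of the moderated one, 2 single-symbol clusters passed, CKMT2 and BAAT, named after their values were seen. CKMT2, a mitochondrial creatine kinase, was at 6.39, 6.38 and 6.39 on the FA-treated arrays and 6.54 on every untreated array, and BAAT, a bile acid conjugating enzyme, was at 3.65 on every FA-treated and 3.70 on every untreated array, differences of -0.15 and -0.05 between nearly or wholly equal replicate values. The study's criteria, a fold change of 1.5 or more with an unadjusted p no higher than 0.05, were met by 172 of 23781 single-symbol clusters (0.723%), of which 55 were higher (0.231%) and 117 lower (0.492%). These criteria do not correct for the number of clusters tested, and the adjusted p of these 172 clusters was 0.700 to 0.734. Counted by gene, 53 were higher (0.236%) and 110 lower (0.49%), and the groups did not overlap in 748 higher (3.33%) and 769 lower genes (3.42%). Among the clusters meeting the criteria, 54 of the 55 higher and 114 of the 117 lower did not overlap. Lack of overlap was also a condition for naming the largest changes, so for such genes it is a description and no added support. The balance of directions depended on scaling: lower clusters made up 68.0% of the calls as deposited and 52.3% after each array was centred on its median, with 106 higher and 116 lower clusters. An exact permutation test of 3 against 3 arrays cannot go below p = 0.10, so single genes are given with the standard error (±) of the log2 fold change from limma, and no single gene below passed adjustment.

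The classes of transcript differed in direction. Protein-coding genes meeting the criteria were 31 higher and 17 lower of 17085 (0.181% and 0.0995%, against 0.236% and 0.49% of all genes). Both protein-coding shares were thus below those of all genes. Small nucleolar RNAs were 2 higher and 19 lower of 239 (0.837% and 7.95%), and small nuclear RNAs 0 higher and 7 lower of 23 (0.0% and 30.4%). Annotated pseudogenes were 4 higher and 43 lower of 936 (0.427% and 4.59%), the lower ones including 28 copies of 5S rRNA and 9 of U6 RNA. MicroRNAs by class were 7 higher and 2 lower of 1040 (0.673% and 0.192%). In the slightly wider microRNA list of 1056 loci described below, the direction turned without untreated replicate 3 (3 higher and 7 lower).

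The protein-coding gene with the largest positive difference was a cystine transporter, and genes of glutathione synthesis lay on the same side. SLC7A11, the cystine/glutamate exchanger of the xCT system, had log2 levels of 8.60, 9.37 and 8.82 on the FA-treated arrays, against 7.73, 6.55 and 6.45 on the untreated arrays. The groups did not overlap, untreated replicate 1 being the nearest to the treated arrays, and the log2 fold change was 2.02 ± 0.42 (SE, 4.06-fold). GCLM, the modifier subunit of glutamate-cysteine ligase, the first step of glutathione synthesis, stood at 9.89, 10.25 and 9.94 on the FA-treated and 9.31, 9.29 and 9.14 on the untreated arrays. Both groups were tight, and the log2 fold change was 0.78 ± 0.11. GCLC, the catalytic subunit of the same ligase, averaged 7.37 ± 0.16 on the FA-treated and 6.88 ± 0.10 on the untreated arrays (SD, n = 3 each), a log2 fold change of 0.49 ± 0.10 with no overlap but below the fold criterion.

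Thioredoxin reductase and quinone reductase followed the same direction. TXNRD1, which reduces thioredoxin with NADPH, was at 9.28, 9.94 and 9.64 on the FA-treated and 8.99, 8.65 and 8.56 on the untreated arrays (log2 fold change 0.89 ± 0.21). NQO1, a 2-electron quinone reductase, was at 13.60, 13.68 and 13.43 on the FA-treated and 13.14, 12.88 and 12.63 on the untreated arrays (0.69 ± 0.15). In both, every FA-treated array lay above every untreated array. FTL, the ferritin light chain, was higher by 0.37 ± 0.09 without reaching the fold criterion, and NMRAL2P, a pseudogene known as an NRF2 target, was at 6.86, 7.54 and 7.48 on the FA-treated and 6.63, 6.42 and 6.38 on the untreated arrays (0.82 ± 0.21).

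Over the whole list of NRF2 targets, 28 of 31 were measured, 22 were higher and 5 lower, and the median log2 fold change was 0.13, against -0.01 over all genes. SLC7A11, GCLM, TXNRD1 and NQO1 met the criteria upwards (14.3% of the list, against 0.236% of all genes) and none downwards. The 14 members with a mean level of 8 and over were all higher, with a median of 0.26, against 0.08 for the 4200 genes at that level. Without untreated replicate 2 the list median was 0.05, and that of those 14 was 0.11, against 0.03, with 13 higher. After quantile normalization 11 of the 14 were higher, with a median of 0.16, against 0.01. The list was written with earlier results of these arrays known, and its counts are a description. HMOX1, the heme oxygenase often used as an NRF2 readout, had values that overlapped between the groups, at 5.31, 5.62 and 5.45 on the FA-treated and 5.39, 5.18 and 5.02 on the untreated arrays (0.26 ± 0.13, unadjusted p above 0.05).

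The RefSeq promoter windows (GRCh38.p14, 250 bases before to 50 after a start) of these genes were searched on both strands for TGACNNNGC, the core of the antioxidant response element that NRF2 binds. Of the 4 genes that met the criteria, GCLM, NQO1 and TXNRD1 had a window, with 4 windows in all. The core was in 3 of these windows, those of GCLM and TXNRD1, and 13.3% of all 35116 windows hold it. The match is a description of the letters and not of a bound site. The windows are shown up to 10 bases after the start, with the matches on either strand in capitals, because these genes met the criteria and hold the core.
GCLM (chr1:93909421-93909680, minus strand): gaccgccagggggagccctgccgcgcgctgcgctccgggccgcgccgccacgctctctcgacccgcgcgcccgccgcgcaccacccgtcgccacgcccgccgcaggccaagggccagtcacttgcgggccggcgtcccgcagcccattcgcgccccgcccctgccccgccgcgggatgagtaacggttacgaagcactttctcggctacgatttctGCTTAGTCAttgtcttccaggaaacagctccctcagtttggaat
TXNRD1 upstream start (chr12:104215529-104215788, plus strand): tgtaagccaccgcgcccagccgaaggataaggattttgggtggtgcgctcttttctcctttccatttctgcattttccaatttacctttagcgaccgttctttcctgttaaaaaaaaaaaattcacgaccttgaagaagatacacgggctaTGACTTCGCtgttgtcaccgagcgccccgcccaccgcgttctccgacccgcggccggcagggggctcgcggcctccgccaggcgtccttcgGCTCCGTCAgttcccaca
TXNRD1 downstream start (chr12:104286782-104287041, plus strand): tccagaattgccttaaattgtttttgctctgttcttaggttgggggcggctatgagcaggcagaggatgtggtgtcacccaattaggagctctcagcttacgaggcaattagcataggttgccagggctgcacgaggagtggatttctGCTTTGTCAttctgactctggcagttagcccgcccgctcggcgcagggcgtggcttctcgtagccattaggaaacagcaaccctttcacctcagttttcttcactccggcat

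**Figure D2:**
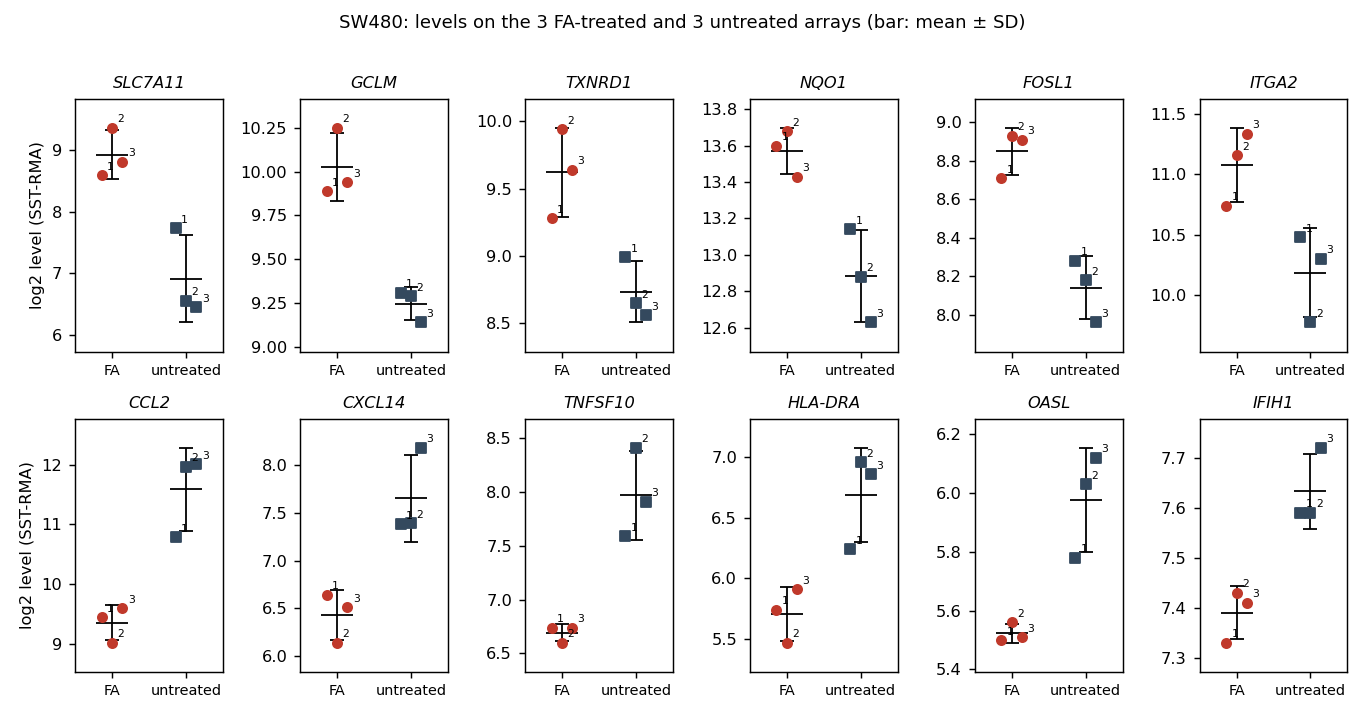
Log2 level (y axis, own scale per panel) of 12 genes on the 3 FA-treated (circles, left) and 3 untreated (squares, right) SW480 arrays, numbered by replicate; bars are mean ± SD. The upper row holds genes that were higher, from SLC7A11 to ITGA2, and the lower row genes that were lower, from CCL2 to IFIH1. In none of the 12 panels do the groups overlap, and the genes were picked by their values.

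ATF4 target genes, which serve amino acid supply, were 31 higher and 11 lower of 43, with a median of 0.11. The 20 with a mean of 8 and over had a median of 0.16, against 0.08 for all genes at that level. The members that met the criteria were SLC7A11, already counted among the NRF2 targets, and STC2 (4.65%, against 0.236% of all genes). STC2, the secreted glycoprotein stanniocalcin 2, was at 8.37, 8.62 and 8.89 on the FA-treated and 8.19, 7.72 and 7.80 on the untreated arrays (0.72 ± 0.19). MTHFD2, a mitochondrial folate enzyme that ATF4 is known to drive, was at 11.87, 11.99 and 11.87 on the FA-treated and 11.68, 11.74 and 11.32 on the untreated arrays, which did not overlap but differed by 0.33 ± 0.13. Without untreated replicate 2 the list median was 0.04, with 25 higher and 17 lower.

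Further protein-coding genes met the criteria upwards, and they are described one by one. FOSL1, an AP-1 subunit, was at 8.71, 8.93 and 8.91 on the FA-treated and 8.28, 8.18 and 7.96 on the untreated arrays (0.71 ± 0.11). ITGA2, the collagen-binding integrin alpha 2 subunit, was at 10.74, 11.16 and 11.34 on the FA-treated and 10.48, 9.77 and 10.30 on the untreated arrays (0.90 ± 0.25). PLAUR, the urokinase receptor, was at 9.17, 9.20 and 9.44 on the FA-treated and 8.84, 8.31 and 8.70 on the untreated arrays (0.65 ± 0.16). None of these overlapped between groups, and FOSL1 met the criteria whichever single array was left out, while ITGA2 and PLAUR did so in 4 of 6 such fits.

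Several others also met the criteria upwards. NTSR1, the neurotensin receptor, had log2 levels of 9.13, 9.16 and 9.36 on the FA-treated and 8.60, 7.95 and 8.09 on the untreated arrays (1.00 ± 0.19). ANXA1, annexin A1, was at 8.06, 7.75 and 7.68 on the FA-treated and 7.18, 6.77 and 6.30 on the untreated arrays (1.08 ± 0.25). DCBLD2, a neuropilin-like receptor, was at 13.11, 13.43 and 13.23 on the FA-treated and 12.64, 12.05 and 12.24 on the untreated arrays (0.95 ± 0.18). These 3, together with TM4SF1, a tetraspanin-like membrane protein (0.80 ± 0.14), and FERMT1, the integrin activator kindlin-1 (0.83 ± 0.21), met the criteria in all 6 fits that left out an array. SNAI2, the mesenchymal transcription factor Slug, was at 7.04, 7.14 and 6.79 on the FA-treated and 6.25, 6.60 and 6.31 on the untreated arrays (0.60 ± 0.14), close to the fold criterion, and it met the criteria in 2 of 6 such fits.

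SFN, the 14-3-3 sigma protein and a p53 target, had one of the largest differences but a wide spread. It was at 9.47, 10.75 and 10.63 on the FA-treated and 9.29, 8.62 and 9.15 on the untreated arrays (1.26 ± 0.41). FA-treated replicate 1 lay close to untreated replicate 1, and the call survived in 1 of 6 fits without an array. The same was true of TFRC, the transferrin receptor (0.86 ± 0.32), of PLIN2, the lipid droplet coat protein perilipin 2 (0.81 ± 0.27), and of the noncoding RUNX1-IT1 (1.15 ± 0.41). All 7 genes of the 14-3-3 family were higher, with a median of 0.14, and SFN met the criteria (14.3%, against 0.236% of all genes). The 6 with a mean of 8 and over had a median of 0.12, against 0.08 for all genes at that level. Without untreated replicate 2 the family median was 0.08 with none meeting the criteria, and after quantile normalization 5 were higher and 2 lower.

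The mesenchymal and matrix list was split by level. Of 41 genes, 23 were higher and 16 lower, with a median of 0.01, and SNAI2, PLAUR and ITGA2 met the criteria upwards (7.32%, against 0.236% of all genes). The 11 members with a mean of 8 and over were 10 higher and 1 lower, with a median of 0.32, against 0.08 for all genes at that level. This was 0.12, against 0.03, without untreated replicate 2 and 0.22, against 0.01, after quantile normalization. VIM, vimentin, was at 9.55, 9.67 and 9.65 on the FA-treated and 9.36, 8.79 and 9.26 on the untreated arrays (0.49 ± 0.16), whereas SPARC, a matrix glycoprotein, was lower, at 7.23, 7.17 and 7.29 on the FA-treated and 7.64, 7.50 and 7.72 on the untreated arrays (-0.39 ± 0.07). DKK1, a secreted Wnt inhibitor, was at 7.85, 7.78 and 7.96 on the FA-treated and 7.42, 7.28 and 7.26 on the untreated arrays (0.54 ± 0.07), below the fold criterion.

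TGANTCA, the AP-1 site with any base allowed in the middle, was searched on both strands in the promoter windows of the 31 protein-coding genes that met the criteria upwards. The 22 genes with a window have 29 windows, of which 5 held the site, and 7.71% of all windows do. They belong to DCLK1, PLAUR, PRDM1 and SFN (DCLK1 and PRDM1 named after their values were seen). The match reads TGAGTCA in PLAUR, TGACTCA in PRDM1 and TGATTCA in SFN. The genes were picked by their values, so the share is descriptive.

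Some groups of abundant genes were higher as groups with no member meeting the criteria. Hypoxia and glycolysis genes were 29 higher and 2 lower of 31 (median 0.17), and the 18 with a mean of 8 and over had a median of 0.20, against 0.08 for all genes at that level. DNA replication and S phase genes were 37 higher and 2 lower of 39 (median 0.12), with 0.16 at a mean of 8 and over. Heat shock genes were 13 higher and 2 lower of 15 (median 0.17). Without untreated replicate 2 these 3 list medians were 0.10, 0.06 and 0.06, and after quantile normalization the replication list was 26 higher and 13 lower. Quantile normalization took the bright-gene background to 0.01 and left medians of 0.15 for the 18 bright hypoxia and glycolysis genes and 0.08 for the 25 bright replication genes. Without untreated replicate 2 these bright-gene medians were 0.10 and 0.07, against 0.03. Examples with no overlap were P4HA1, a collagen prolyl hydroxylase (0.53 ± 0.20), RRM2, the small subunit of ribonucleotide reductase (0.44 ± 0.09), and HSPH1, an HSP110 chaperone (0.41 ± 0.13). TXNIP, the thioredoxin-binding protein, was at 8.88, 9.69 and 9.62 on the FA-treated and 8.75, 7.95 and 8.87 on the untreated arrays (0.87 ± 0.35, unadjusted p above 0.05), which did not overlap but missed the criteria.

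The folate pathway itself moved little. Of 28 measured folate and 1-carbon genes, 12 were higher and 14 lower, the median was -0.01, and none met the criteria. Folate entry was represented by FOLR1, the folate receptor alpha, at 6.53, 6.39 and 6.44 on the FA-treated and 6.60, 6.59 and 6.87 on the untreated arrays (-0.23 ± 0.09, unadjusted p above 0.05), with no overlap. The reduced folate carrier SLC19A1 ranged from 6.59 to 6.63 over the FA-treated arrays and was 6.59 on every untreated array, and the proton-coupled transporter SLC46A1 was at 6.11, 6.09 and 6.18 on the FA-treated and 6.11, 5.81 and 6.11 on the untreated arrays. SLC25A32, the mitochondrial folate carrier, was at 8.30, 8.49 and 8.42 on the FA-treated and 8.24, 8.17 and 7.97 on the untreated arrays (0.28 ± 0.09).

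Among the enzymes, only MTHFD2 had an unadjusted p under 0.05. TYMS, thymidylate synthase, was at 10.56, 10.98 and 10.76 on the FA-treated and 10.58, 10.42 and 10.53 on the untreated arrays, overlapping at FA-treated replicate 1 (0.26 ± 0.12). SHMT2, the mitochondrial serine hydroxymethyltransferase, was at 10.14, 10.42 and 10.65 on the FA-treated and 10.54, 9.96 and 10.87 on the untreated arrays (-0.05 ± 0.28), and MTR, methionine synthase, differed by 0.10 ± 0.12. FPGS, which polyglutamates folates, GGH, which removes the glutamates, ATIC, a purine synthesis enzyme, and MTHFD2L differed by 0.01, 0.02, 0.02 and 0.00. The remaining members lay between -0.09 and 0.18, and their standard errors, up to 0.24 for MTHFD1, do not exclude changes of that size. In the methionine cycle list (28 genes, 16 higher, 9 lower) MAT2A, which makes S-adenosylmethionine, was at 11.65, 12.15 and 11.95 on the FA-treated and 11.65, 11.12 and 11.30 on the untreated arrays, touching at replicate 1 of each group (0.56 ± 0.19), and ODC1, the ornithine decarboxylase of polyamine synthesis, was higher without overlap (0.52 ± 0.16).

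**Figure D3:**
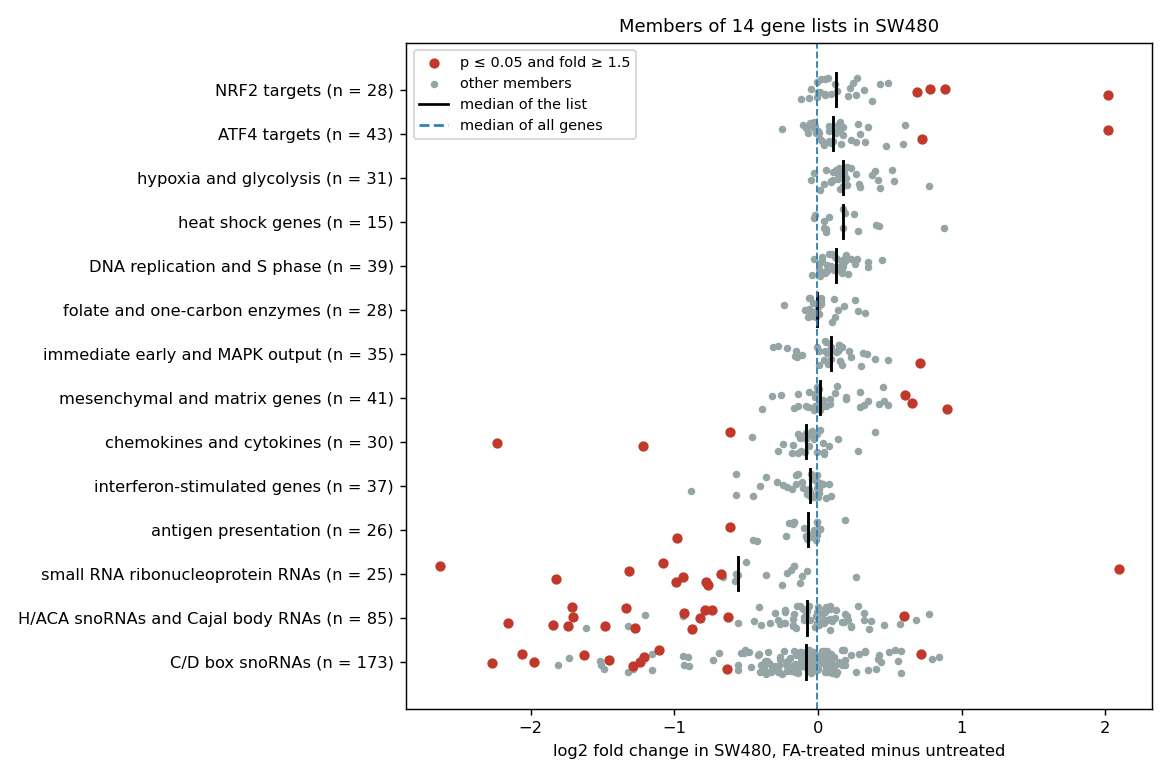
Log2 fold change (x axis, FA-treated minus untreated) of each measured gene in 14 gene lists (rows, with the number measured); red points met the criteria, grey points did not, black bars are list medians and the dashed line is the median of all genes (-0.01). The NRF2, hypoxia and glycolysis and replication rows lie to the right of the line, the folate row on it, and the rows of immune genes and small ribonucleoprotein RNAs have tails to the left.

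The most strongly lower protein-coding gene was CCL2, the monocyte-attracting chemokine MCP-1. It stood at 9.45, 9.02 and 9.60 on the FA-treated and 10.79, 11.97 and 12.01 on the untreated arrays, a log2 fold change of -2.23 ± 0.39 (4.70-fold lower). The nearest values of the groups were more than 1 log2 unit apart, and the call held in all 6 fits without an array. CXCL14, another chemokine, was at 6.64, 6.14 and 6.51 on the FA-treated and 7.38, 7.39 and 8.18 on the untreated arrays (-1.22 ± 0.28). CCL20, the ligand of CCR6, was at 6.27, 6.10 and 6.51 on the FA-treated and 6.69, 7.03 and 6.99 on the untreated arrays (-0.61 ± 0.15), at the edge of the fold criterion, and met the criteria in 3 of 6 such fits. Of 30 chemokines and cytokines, 8 were higher and 22 lower (median -0.08), and these 3 met the criteria (10.0%, against 0.49% of all genes). Without untreated replicate 2 the list median was -0.02 and 2 met them.

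Not every inflammatory gene followed. TNF was at 5.55, 5.27 and 5.99 on the FA-treated and 5.84, 6.15 and 6.20 on the untreated arrays, overlapping at FA-treated replicate 3 (-0.46 ± 0.22). LIF, an IL-6 family cytokine, was higher without overlap (0.40 ± 0.17, unadjusted p above 0.05). Of 20 NF-kB subunits and feedback genes, 5 were higher and 12 lower, with none meeting the criteria. IER3, an NF-kB-responsive early gene, was lower without overlap in its brightest cluster (-0.31 ± 0.09). A dimmer IER3 cluster differed by -0.28 and overlapped, with 9.24 on FA-treated replicate 3 and 9.21 on untreated replicate 1. DUSP6, the ERK phosphatase, had 14.06, 14.06 and 14.13 on the FA-treated and 14.23, 14.24 and 14.23 on the untreated arrays (-0.15 ± 0.03), a small difference with no overlap.

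TNFSF10, the death ligand TRAIL, was at 6.74, 6.60 and 6.74 on the FA-treated and 7.59, 8.41 and 7.91 on the untreated arrays (-1.28 ± 0.22, 2.42-fold lower), again with no overlap and in all 6 fits. Its receptor gene TNFRSF10A was higher by 0.38 ± 0.14 with touching groups. HLA-DRA, the class II alpha chain, was at 5.74, 5.47 and 5.91 on the FA-treated and 6.24, 6.96 and 6.86 on the untreated arrays (-0.98 ± 0.23). The array holds 7 clusters for HLA-DRA, most of them on alternative haplotypes of the locus, and all met the criteria, so they count as 1 gene. HLA-DRB1 was lower by 0.61 ± 0.22 on the log2 scale in its brighter cluster, with a second cluster at -0.26, and the call held in 1 of 6 fits without an array. B2M, the light chain of class I, was at 12.87, 12.55 and 12.76 on the FA-treated and 12.96, 13.37 and 13.13 on the untreated arrays (-0.43 ± 0.14). Of 26 antigen presentation genes, 4 were higher and 21 lower (median -0.07), and HLA-DRA and HLA-DRB1 met the criteria (7.69%, against 0.49% of all genes). With each array centred on its median, 11 were higher and 15 lower, with a median of -0.02 and 1 meeting the criteria.

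Interferon-stimulated genes were 8 higher and 28 lower of 37 (median -0.05), none met the criteria, and 7 were lower with no overlap between groups (18.9%, against 3.42% of all genes). OASL, an oligoadenylate synthetase-like antiviral protein, was at 5.50, 5.56 and 5.51 on the FA-treated and 5.78, 6.03 and 6.12 on the untreated arrays (-0.45 ± 0.10). IFIT2, an RNA-binding antiviral protein, was at 3.78, 3.87 and 3.92 on the FA-treated and 4.21, 4.20 and 4.37 on the untreated arrays (-0.40 ± 0.06), low on all arrays. IFIH1, the double-stranded RNA sensor MDA5, was at 7.33, 7.43 and 7.41 on the FA-treated and 7.59, 7.59 and 7.72 on the untreated arrays (-0.24 ± 0.05). IFI6 had the largest difference of the list but touched at replicate 1, with 10.64, 9.58 and 10.10 on the FA-treated and 10.64, 11.60 and 10.74 on the untreated arrays (-0.89 ± 0.39). With each array centred on its median, 18 of the 37 were higher and 18 lower and the list median was 0.00, so that the shift of the list as a whole depended on scaling. Of the 6 members with a mean of 8 and over, 5 were lower as deposited (median -0.29), 4 after centring (-0.24) and 3 without untreated replicate 3 (-0.07). Leukocyte markers averaged 4.25 to 4.31 on the FA-treated and 4.24 to 4.31 on the untreated arrays.

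The core of the interferon-stimulated response element, a pair of GAAA runs separated by any 2 bases, was searched on both strands in the windows of TNFSF10 and of the interferon-stimulated genes that were lower at an unadjusted p of at most 0.05. The 5 genes with a window have 6 windows, of which 5 held it, and 3.57% of all windows do. They belong to HERC5, IFI27, IFIH1 and TNFSF10, and RIGI had no match, so that 4 of the 5 genes held it. The windows of IFI27 overlap and hold the same 2 matches, so the count of windows repeats them. The genes were picked by their values, so the share is descriptive. TNFSF10 and IFIH1 are shown to the same extent as above, with the matches in capitals; 2 of the matches of IFIH1 overlap.
TNFSF10 (chr3:172523421-172523680, minus strand): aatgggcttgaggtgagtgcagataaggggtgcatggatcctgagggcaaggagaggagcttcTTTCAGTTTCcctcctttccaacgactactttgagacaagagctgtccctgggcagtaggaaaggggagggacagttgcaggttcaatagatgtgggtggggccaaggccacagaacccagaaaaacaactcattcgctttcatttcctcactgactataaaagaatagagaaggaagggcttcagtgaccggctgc
IFIH1 (chr2:162318675-162318934, minus strand): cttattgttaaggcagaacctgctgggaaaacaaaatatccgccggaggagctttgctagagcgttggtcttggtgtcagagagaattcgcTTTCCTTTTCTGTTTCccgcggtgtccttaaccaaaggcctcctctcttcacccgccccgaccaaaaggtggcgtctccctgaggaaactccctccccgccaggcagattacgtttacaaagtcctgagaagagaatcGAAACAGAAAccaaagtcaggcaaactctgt

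Other protein-coding genes were lower too. H4C3, a replication-dependent histone H4 gene, was at 11.05, 10.40 and 10.58 on the FA-treated and 11.37, 11.98 and 11.95 on the untreated arrays (-1.09 ± 0.25). The 39 histone genes measured were 15 higher and 23 lower with a median of -0.04. The 12 with a mean of 8 and over were 3 higher and 8 lower. Their median was -0.14, against 0.08 for all genes at that level. TNNC1, the slow troponin C, was chosen here after its values were seen, for its tightness: it stood at 6.97, 6.81 and 6.76 on the FA-treated and 7.46, 7.47 and 7.52 on the untreated arrays (-0.64).

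The largest differences of all were in short structured noncoding RNAs, and nearly all were lower. Whether short RNAs were recovered alike in every RNA preparation was not tested. RNU4ATAC, the U4atac RNA of the minor spliceosome, had log2 levels of 10.11, 9.28 and 9.99 on the FA-treated and 11.75, 12.03 and 13.49 on the untreated arrays, a log2 fold change of -2.63 ± 0.54 (6.19-fold lower). RMRP, the RNA of RNase MRP, which processes pre-ribosomal RNA, was at 15.07, 14.37 and 15.19 on the FA-treated and 16.45, 16.41 and 17.25 on the untreated arrays (-1.83 ± 0.34). In both, the groups did not overlap and untreated replicate 3 was the highest array. RNU6-1, a U6 RNA of the major spliceosome, was at 12.55, 12.35 and 12.19 on the FA-treated and 13.28, 13.66 and 13.11 on the untreated arrays (-0.99 ± 0.18), and RNU6-11 and RNU6-37 had identical values on every array, so these loci are a single measurement.

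Of 25 RNAs of small ribonucleoproteins, 2 were higher and 23 lower, the median was -0.55, and 9 met the criteria downwards (36.0%, against 0.49% of all genes). Besides the RNAs above these were RN7SK, RN7SL1, RNU11, RNU5E-1, RNU4-2 and RNY3. Of these, RN7SK, RN7SL1, RNU11 and RNU5E-1, like TERC, RNY1 and RNY4, are named as members of the list, after their values were seen. RN7SL1, the RNA of the signal recognition particle, differed by -0.67, RN7SK, the inhibitor of P-TEFb, by -0.78, and RNU11, of the minor spliceosome, by -0.94. RPPH1, the RNA of RNase P, missed the fold criterion (-0.58 ± 0.18), and TERC, the telomerase RNA, differed by -0.66 with an unadjusted p above 0.05. The 13 members with a mean of 8 and over were all lower, with a median of -0.78, opposite to the background of 0.08 at that level. They were all lower too without untreated replicate 2 (-0.81), without untreated replicate 3 (-0.81) and after quantile normalization (-0.87).

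Y RNAs, which bind the Ro60 protein, did not move together. RNY3 was at 15.76, 15.60 and 15.34 on the FA-treated and 16.56, 16.33 and 17.76 on the untreated arrays (-1.32 ± 0.42). RNY5 went the other way, at 6.07, 5.66 and 6.48 on the FA-treated and 4.39, 3.13 and 4.41 on the untreated arrays (2.09 ± 0.44), the largest positive difference of any named gene. A second RNY5 cluster differed by 0.12, RNY1 by -0.36 and RNY4 by 0.27, none of them past the criteria, so that the call on RNY5 rests on 1 of its 2 clusters.

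**Figure D4:**
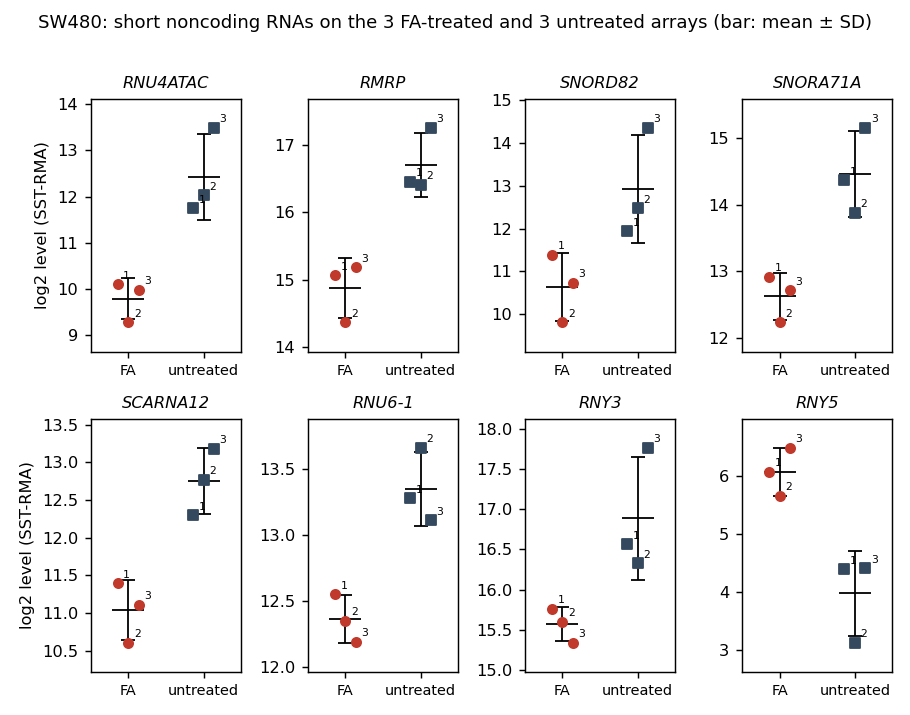
Log2 level (y axis, own scale per panel) of 8 short noncoding RNAs on the 3 FA-treated (circles, left) and 3 untreated (squares, right) SW480 arrays, numbered by replicate; bars are mean ± SD. In 7 panels every FA-treated array lies below every untreated array, with untreated replicate 3 highest in 6 of them, and RNY5 is the exception, at 5.66 to 6.48 on the FA-treated and 3.13 to 4.41 on the untreated arrays.

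Small nucleolar RNAs, which guide methylation (C/D box) or pseudouridylation (H/ACA box) of ribosomal and spliceosomal RNA, were split by abundance. Of 173 C/D snoRNAs, 56 were higher and 115 lower (median -0.08), and 1 higher and 10 lower met the criteria (0.578% and 5.78%, against 0.236% and 0.49% of all genes). The 33 with a mean of 8 and over had a median of -1.15, with 9 higher and 24 lower. Of 85 H/ACA and Cajal body RNAs, 35 were higher and 50 lower (median -0.08), and 1 higher and 14 lower met the criteria (1.18% and 16.5%). The 18 abundant ones had a median of -0.94, and 17 of them were lower.

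SNORD82, a C/D box RNA within the nucleolin gene, was at 11.39, 9.81 and 10.74 on the FA-treated and 11.94, 12.47 and 14.35 on the untreated arrays (-2.27 ± 0.78). Its untreated value on replicate 3 was far above the others, and it met the criteria in 3 of 6 fits without an array. SNORA71A, an H/ACA RNA, was at 12.92, 12.23 and 12.72 on the FA-treated and 14.37, 13.88 and 15.16 on the untreated arrays (-1.85 ± 0.38), and SCARNA12, of the Cajal body, at 11.40, 10.61 and 11.11 on the FA-treated and 12.30, 12.77 and 13.18 on the untreated arrays (-1.71 ± 0.31). Both met the criteria in all 6 such fits, as did SNORA71D (-1.48 ± 0.21) and SNORD97 (-1.46 ± 0.23). The SNORD97 call rests on 1 of its 2 clusters. SNORA49, SNORD99, SNORD71, SNORA48 and SNORD3C, at -2.16, -2.06, -1.98, -1.74 and -1.29, each had their highest value on untreated replicate 3 and lost the call in 2 to 4 of the fits. Without that array the median of the abundant C/D snoRNAs was -0.51 and that of the abundant H/ACA and Cajal body RNAs -0.61, still with 22 and 17 members lower.

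Loci annotated as 5S rRNA or its pseudogenes were 88 higher and 400 lower of 493 (median -0.15), and 29 met the criteria, all lower (5.88%, against 0.49% of all genes). RNA5SP243 led them, at 8.16, 7.81 and 9.08 on the FA-treated and 9.90, 10.17 and 11.25 on the untreated arrays (-2.09 ± 0.51). Of the 493 loci, 401 had a mean under 6, with a median of -0.12, against -0.03 for all genes at that level. Without untreated replicate 2 the 5S list was 146 higher and 345 lower (median -0.09), and 25 met the criteria, all lower. Spliceosomal snRNA loci and pseudogenes were 65 higher and 149 lower of 216 (median -0.15), with 29 lower (13.4%) and 0 higher meeting the criteria, 23 of them U6 loci. Such copies differ by few bases and probes cannot assign a signal to a locus, so these counts describe families.

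MicroRNA loci that met the criteria were 7 higher and 2 lower of 1056 (0.663% and 0.189%, against 0.236% and 0.49% of all genes). Without untreated replicate 3 the counts were 3 higher and 7 lower. Over the whole list 414 loci were higher and 634 lower (median -0.04), and the 62 loci with a mean of 8 and over were 43 higher and 19 lower, which became 29 and 33 without that array. The array reads the locus, mostly the precursor or its host transcript, and not the mature strand. MIR15B was at 7.51, 7.95 and 7.46 on the FA-treated and 6.07, 7.35 and 6.19 on the untreated arrays (1.10 ± 0.39), with untreated replicate 2 close to the treated arrays, and MIR29B1 was at 5.28, 6.16 and 5.41 on the FA-treated and 4.39, 4.72 and 5.02 on the untreated arrays (0.91 ± 0.30). MIR3136 was at 6.05, 5.34 and 5.88 on the FA-treated and 5.10, 4.60 and 4.48 on the untreated arrays (1.03 ± 0.26), and MIR4441 at 7.02, 7.39 and 7.09 on the FA-treated and 6.61, 6.46 and 5.76 on the untreated arrays (0.89 ± 0.26). All 4 separated without overlap, and MIR3136 alone among them met the criteria in all 6 fits without an array. MIR1205 differed by 1.28 ± 0.45 and met them in 2.

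The mature RNAs of MIR15B, MIR29B1, MIR3136 and MIR4441 are shown with the seed (bases 2 to 8) in capitals, since the seed is the part that pairs with targets. RefSeq (GRCh38.p14) gave 13 mature sequences for 8 of the 9 called loci, with 13 distinct seeds, so no pair among these 8 shares a seed.
hsa-miR-15b-5p: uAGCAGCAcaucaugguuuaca
hsa-miR-15b-3p: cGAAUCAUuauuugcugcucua
hsa-miR-29b-3p: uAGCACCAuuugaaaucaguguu
hsa-miR-29b-1-5p: gCUGGUUUcauauggugguuuaga
hsa-miR-3136-5p: cUGACUGAauagguagggucauu
hsa-miR-3136-3p: uGGCCCAAccuauucaguuagu
hsa-miR-4441: aCAGGGAGgagauugua

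The question of whether folic acid acted alike in both lines was put to an interaction contrast over 12 arrays. No cluster passed an adjusted p of 0.05 for the difference of the FA effect between SW480 and HT-29 in limma (0.0% of 67528, smallest adjusted p over single-symbol clusters 0.576, with 2.65% of them at an unadjusted p under 0.05). HT-29 untreated replicate 3 stood apart, with a median of 4.75 and an SD over clusters of 1.86, against 4.30 to 4.40 and 2.17 to 2.20 on the other HT-29 arrays. Without it the count was again 0 (smallest adjusted p 0.422, with 5.21% at an unadjusted p under 0.05). The HT-29 values were not used in choosing the SW480 genes. Of the 53 genes higher in SW480, 26 had the same sign in HT-29 (16 without that array), with an HT-29 median of -0.02 (-0.13). Of the 110 genes lower in SW480, 56 had the same sign (72), with an HT-29 median of -0.01 (-0.08), against SW480 medians of 0.74 and -0.91.

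SLC7A11 and GCLM, picked for their SW480 values, had opposite signs in the lines, while the whole cystine and glutathione list had medians of 0.09 in SW480 and 0.03 in HT-29 (-0.07 without HT-29 untreated replicate 3). The whole NRF2 target list had medians of 0.13 in SW480 and -0.01 in HT-29 (-0.13 without that array). In HT-29, SLC7A11 was at 14.22, 12.25 and 13.40 on the FA-treated and 14.91, 13.97 and 13.71 on the untreated arrays, a log2 fold change of -0.91 in HT-29, and the SW480 effect exceeded it by 2.93 ± 0.76 (adjusted p = 0.939 in limma). GCLM was at 12.05, 10.11 and 11.70 on the FA-treated and 12.68, 12.08 and 12.03 on the untreated HT-29 arrays (-0.98), and TXNRD1 differed by -0.38 and NMRAL2P by -0.66 in HT-29. LUCAT1, a long noncoding RNA known to respond to NRF2 and noticed here after its values were seen, was higher by 0.65 in SW480 and lower by 1.05 in HT-29. FA-treated replicate 2 was the lowest HT-29 array for SLC7A11 and GCLM.

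TNFSF10 was opposite the other way. It stood at 6.15, 7.02 and 6.67 on the FA-treated and 5.72, 6.08 and 4.53 on the untreated HT-29 arrays (1.17, and 0.71 without untreated replicate 3). CCL2 was at 3.71 to 3.82 and CXCL14 at 3.76 to 4.13 on all HT-29 arrays, near the lower end of the scale. RNU4ATAC differed by 1.63 in HT-29, which became 0.47 without untreated replicate 3, and RMRP by 0.14, which became -0.10. None of these line differences passed the adjusted threshold.

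**Figure D5:**
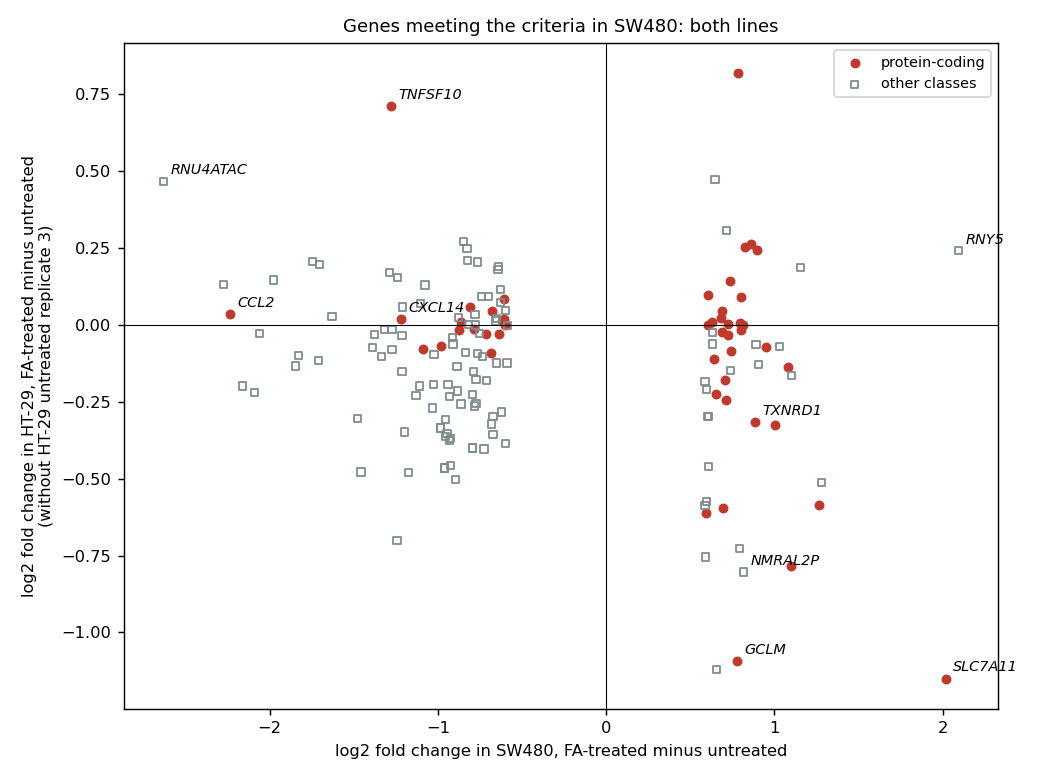
Log2 fold change (FA-treated minus untreated) of the genes that met the criteria in SW480, in SW480 (x axis) and in HT-29 without its untreated replicate 3 (y axis); red circles are protein-coding genes and grey squares other classes. The HT-29 values scatter about 0 on both sides, with SLC7A11, GCLM, TXNRD1 and NMRAL2P at lower right and TNFSF10 at upper left.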

How the data were processed

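Total RNA of SW480 and HT-29 cells was purified with the RNeasy Mini Kit and hybridised to Human Transcriptome Array 2.0. The recovery of short RNAs in each preparation is not known. The deposited log2 values are those the authors obtained with SST-RMA (background subtraction, normalization and summarization) in Transcriptome Analysis Console 4.0. They fill 12 columns without missing values and with no depth in counts. The number of arrays limits the precision, and the arrays were not all of equal range, as described above. The genome build is not given in the sources used here, and promoter and microRNA sequences are from RefSeq, GRCh38.p14, matched by symbol. Symbols came from the platform annotation (21497 single-symbol clusters matched by Entrez number, 0 renamed), and clusters with several symbols were not named.

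The 3 FA-treated and 3 untreated SW480 arrays were compared with limma 3.58.1 (lmFit and eBayes, R 4.3.3), with Benjamini-Hochberg adjustment over all 67528 clusters, after a test on simulated data. The difference between lines was a contrast over 12 arrays in 4 groups. Members and gene lists were chosen with earlier results of these data known. Named genes were the 20 higher and 20 lower with the largest change among single-symbol clusters meeting the criteria without overlap, in each list the 5 members of lowest p, all folate genes and genes the paper names for SW480, and exceptions are marked. Alternatives were other variance models, array weights, a replicate block, quantile normalization, median centring, filters, a fold change of 2 and leaving out each array.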

Additional observations from a re-analysis of the deposited data

How the results depend on the processing

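No single-symbol cluster passed the adjusted threshold under any alternative except the variance of each cluster alone, which called 2 whose replicate values were nearly or wholly equal. The 172 single-symbol clusters that met the criteria became 175 with all 12 arrays fitted, 172 with a variance trend and robust moderation, 128 with the variance of each cluster alone, 168 with array weights, 199 after quantile normalization and 222 after median centring. They became 49 (10 higher and 39 lower) at a fold change of at least 2. Leaving out each array in turn gave 104 to 230 clusters, with 104 without FA-treated replicate 2. Clusters with identical values counted once gave 164, an alternative chosen after seeing the data. Same-numbered arrays deviated together with correlations of -0.08, 0.01 and 0.40, so the numbers were not taken to pair them, and with the replicate number as a block 168 clusters met the criteria, of which 137 were shared. For the difference between lines, 0 clusters passed with and without HT-29 untreated replicate 3. No named gene changed sign past the criteria under any alternative tried. With 3 arrays a group, fold changes under 1.5 are poorly resolved.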
